A study of Danio rerio with 70 samples.

Results

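Germ-cell and meiosis genes were followed across zebrafish T-cell acute lymphoblastic leukaemias (T-ALL), a cancer of immature T cells, and across normal thymus cells. The 40 genes were chosen by name, for their known work in germ cells or in meiosis, and with earlier results of these data known. Their shares of calls are therefore not those of a set chosen apart from the data. Of the 40 genes, 36 were found among the 35117 genes of the deposited tables. The names mael, nanos2, syce3 and tex14 matched no gene, and syce1 was matched through its clone name si:ch211-199g17.9. In 6 of 9 leukaemias of the mutant line hulk, 29 to 35 of the 36 genes reached 1 CPM (reads per gene scaled to the size of the library), whereas in each of the 5 healthy T-cell samples only 6 or 7 did. Leukaemias otg 6, otg 7, shrek 1 and shrek 11, of the other mutant lines, had 31, 20, 30 and 23 such genes. Of all genes, 11828 to 15973 reached 1 CPM in hulk leukaemias and 13099 to 14958 in the healthy samples.

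Germ cells protect their genome from transposons with PIWI proteins that carry small RNAs called piRNAs. These proteins work in germ granules, which are built around the RNA helicase Ddx4 (Vasa) and proteins with Tudor domains. In meiosis, Spo11 cuts chromosomes, the recombinase Dmc1 pairs the broken ends with the homologous chromosome, and the synaptonemal complex, with Sycp1 at its centre, holds the homologues together. Most of these genes are known for their work in cells of the testis and ovary, and some recombination factors are also made by dividing somatic cells.

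The leukaemias of hulk (9 samples), otg (10) and shrek (10) came from mutant fish that carry the Tg(lck:GFP) transgene, in which a T-cell promoter drives green fluorescent protein (GFP), and GFP-positive cells were sorted. Thymocytes sorted before leukaemia, called preleukemic in the labels, came from hulk (3 samples), otg (4) and shrek (2) fish and from Tg(rag2:hMYC) fish (3), which express human MYC from a promoter of immature lymphocytes. They were set against sorted cells of 5 healthy Tg(lck:GFP) fish samples. Another laboratory gave primary leukaemias of Tg(rag2:hTLX1; rag2:GFP) fish, which express human TLX1 under the same rag2 promoter, with wild-type phf6 (2 samples) or as phf6+/- heterozygotes (4). It also gave transplants of these leukaemias into Rag2-/- hosts (6 of each genotype) and, as the normal tissue, 6 samples of thymi dissected from Tg(rag2:GFP) fish, titled AB and not described as sorted. The title of thymus sample 3 lists 4 numbers where the others have 1, and the labels do not say whether it is a pool. The labels give no ages, and they do not say that the samples of a group are separate animals, so p-values measure the spread between these samples only.

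Gene reads per sample ran between 8676867 and 56471528. All 11 T-cell marker genes measured, among them lck, rag1 and cd4-1, were at 1 CPM or more in every sample, and some of them were lower in hulk leukaemias, as given beside the gonadal markers. Hulk leukaemias 1 and 2 and healthy sample 3 had over 20% of their reads in mitochondrial genes (24.98%, 61.4% and 21.97%). The healthy sorted samples stand in a count table of their own, so that a difference between tables and one between these cells and the leukaemias cannot be told apart. In bulk samples, fewer cells of a type and less RNA per cell cannot be told apart either.

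Most of the transcripts appeared together in some samples, were few in most others and lay between in a few. In hulk leukaemias 4, 3, 1, 2, 6 and 8 the number of genes at 1 CPM or more was 35, 34, 33, 32, 32 and 29, and in hulk leukaemias 5, 9 and 7 it was 8, 8 and 5. Otg leukaemia 3 had 12, shrek leukaemia 3 had 10, and the remaining otg and shrek leukaemias had between 3 and 8. Preleukemic thymocytes had 7, 9 and 11 in hulk, 5 to 8 in otg, 8 and 9 in shrek and 6 or 7 in hMYC fish. Leukaemias of TLX1 fish and their transplants had 4 to 8, against 5 in each dissected thymus. The number of all genes at 1 CPM or more also varied. It was 11828 to 15973 in hulk, 10788 to 12862 in otg and 11708 to 12669 in shrek leukaemias, and 15741 to 16497 in dissected thymi. The handful of genes counted in nearly every sample were tdrkh, mlh3, mnd1, psmc3ip and tex15, with sycp1 in many.

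**Figure D1:**
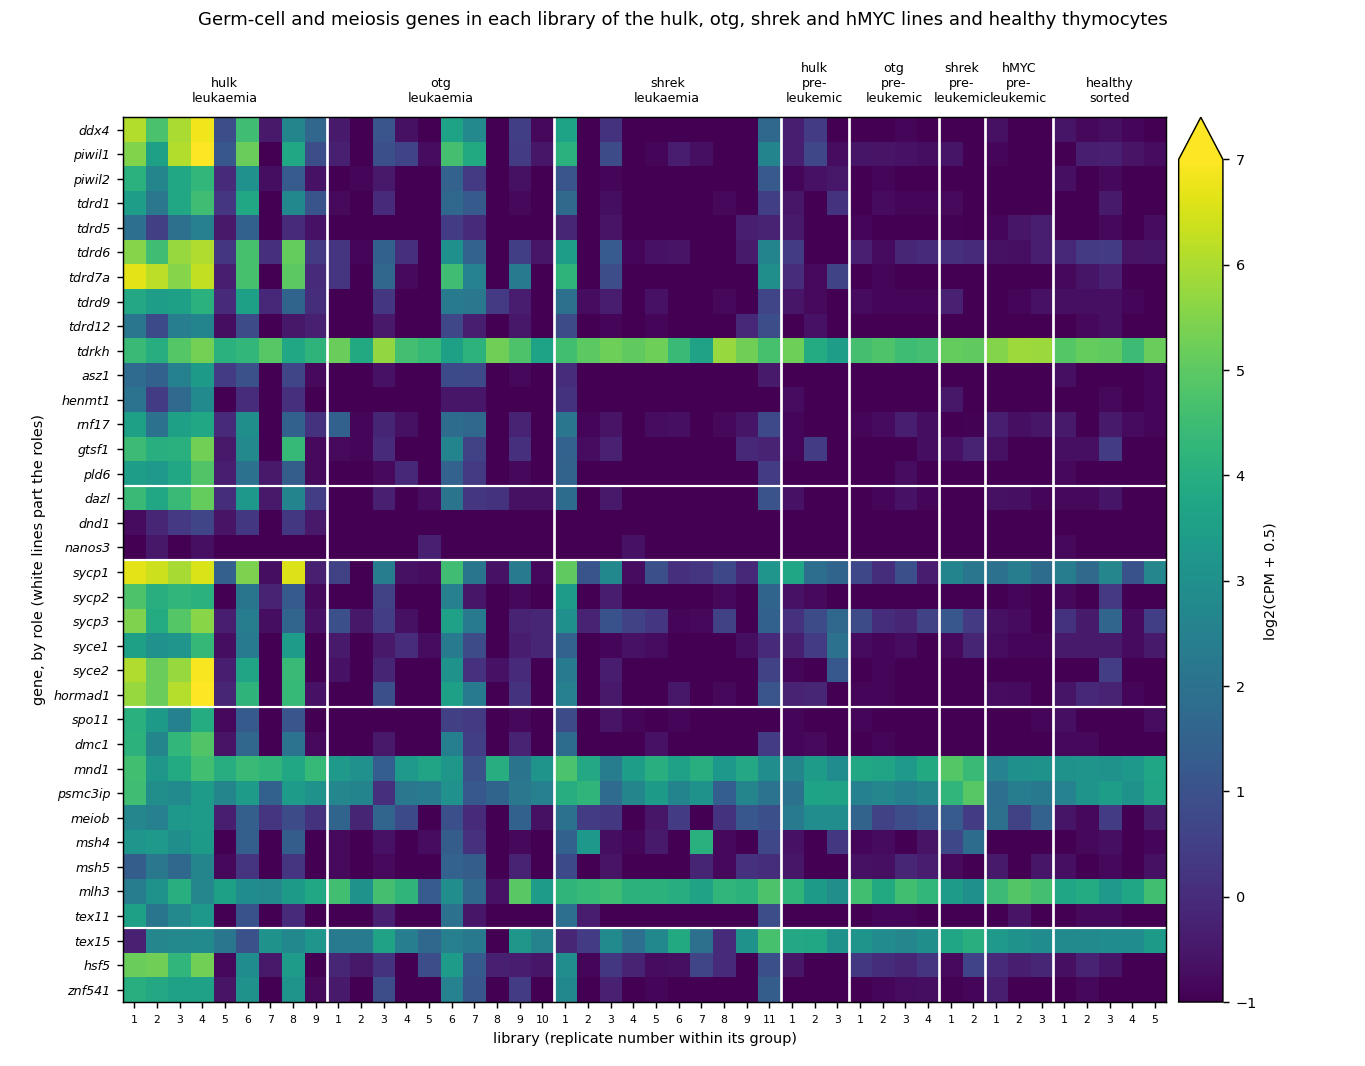
Level of 36 germ-cell and meiosis genes (rows, ordered by role) in the 46 sorted samples of the mutant lines, hMYC fish and healthy fish (columns), as log2(CPM + 0.5) in colour. Hulk leukaemias 1 to 4, 6 and 8, otg leukaemia 6 and shrek leukaemia 1 are lit across nearly all rows, and tdrkh, mlh3, mnd1, psmc3ip and tex15 are lit across nearly all columns.

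The germ-granule helicase gene ddx4 (ENSDARG00000014373) was at 66.5, 25.6, 62.8, 112.8, 1.42, 23.1, 0.228, 5.91 and 2.64 CPM in hulk leukaemias 1 to 9. In hulk preleukemic thymocytes it was at 0.303, 0.813 and 0 CPM. In healthy sorted cells it was at 0.186, 0.0610, 0.125, 0.0441 and 0 CPM. Every hulk leukaemia was above every healthy sample, but hulk leukaemia 7 was within the range of the hulk preleukemic samples. Hulk leukaemia 7 had 2 ddx4 reads and healthy sample 1 had 3, so that their order rests on the scaling of the libraries.

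In otg leukaemias ddx4 had a median of 0.193 CPM, with 0 as the lowest and 12.04 CPM, in otg 6, as the highest value, and in shrek leukaemias a median of 0 with a highest value of 11.8 CPM, in shrek 1. Otg 7 stood at 6.35, shrek 11 at 2.76 and otg 3 at 1.66 CPM, and all others of these lines were under 1 CPM. Otg preleukemic thymocytes had 0, 0, 0.0507 and 0 CPM, both shrek preleukemic samples had 0, and the hMYC samples had 0.146, 0 and 0. Of the otg and shrek samples, only these 5 leukaemias reached 1 CPM, and the ranges of leukaemias and healthy cells overlapped.

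In the TLX1 series ddx4 stayed under 1 CPM in every sample. It was at 0.412 and 0.164 CPM in the TLX1 primary leukaemias, between 0.0683 and 0.671 CPM in the phf6+/- primaries, at up to 0.291 and 0.123 CPM in the transplants of each genotype, and between 0.155 and 0.338 CPM in the dissected thymi. These ranges overlap.

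The PIWI gene piwil1 (ENSDARG00000041699), known in zebrafish as ziwi, was at 44.4, 11.2, 67.4, 129.6, 1.77, 35.3, 0, 13.4 and 1.40 CPM in hulk leukaemias 1 to 9. It was at 0.303, 1.14 and 0.105 CPM in hulk preleukemic thymocytes, and in healthy sorted cells at 0, 0.305, 0.312, 0.177 and 0.0954 CPM. All hulk leukaemias except number 7, which had no read, were above all healthy and all hulk preleukemic samples. Otg leukaemias had a median of 0.575 CPM and reached 24.3 CPM in otg 6, and shrek leukaemias had a median of 0.0888 CPM and reached 16.8 CPM in shrek 1.

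The meiotic recombinase gene dmc1 (ENSDARG00000055883) was at 17.1, 5.81, 19.1, 27.9, 0.177, 2.62, 0, 3.61 and 0.0777 CPM in hulk leukaemias 1 to 9, against 0.0505, 0.0813 and 0 CPM in hulk preleukemic thymocytes and 0.0620, 0.0610, 0, 0 and 0 CPM in healthy sorted cells. It was over 1 CPM in 6 hulk leukaemias, and 8 of 9 were above every healthy sample. Hulk leukaemia 9 and healthy samples 1 and 2 had 1 dmc1 read each, so that their order rests on the scaling of the libraries. Its highest values were 4.94 CPM among otg leukaemias, in otg 6, and 3.07 CPM among shrek leukaemias, in shrek 1.

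**Figure D2:**
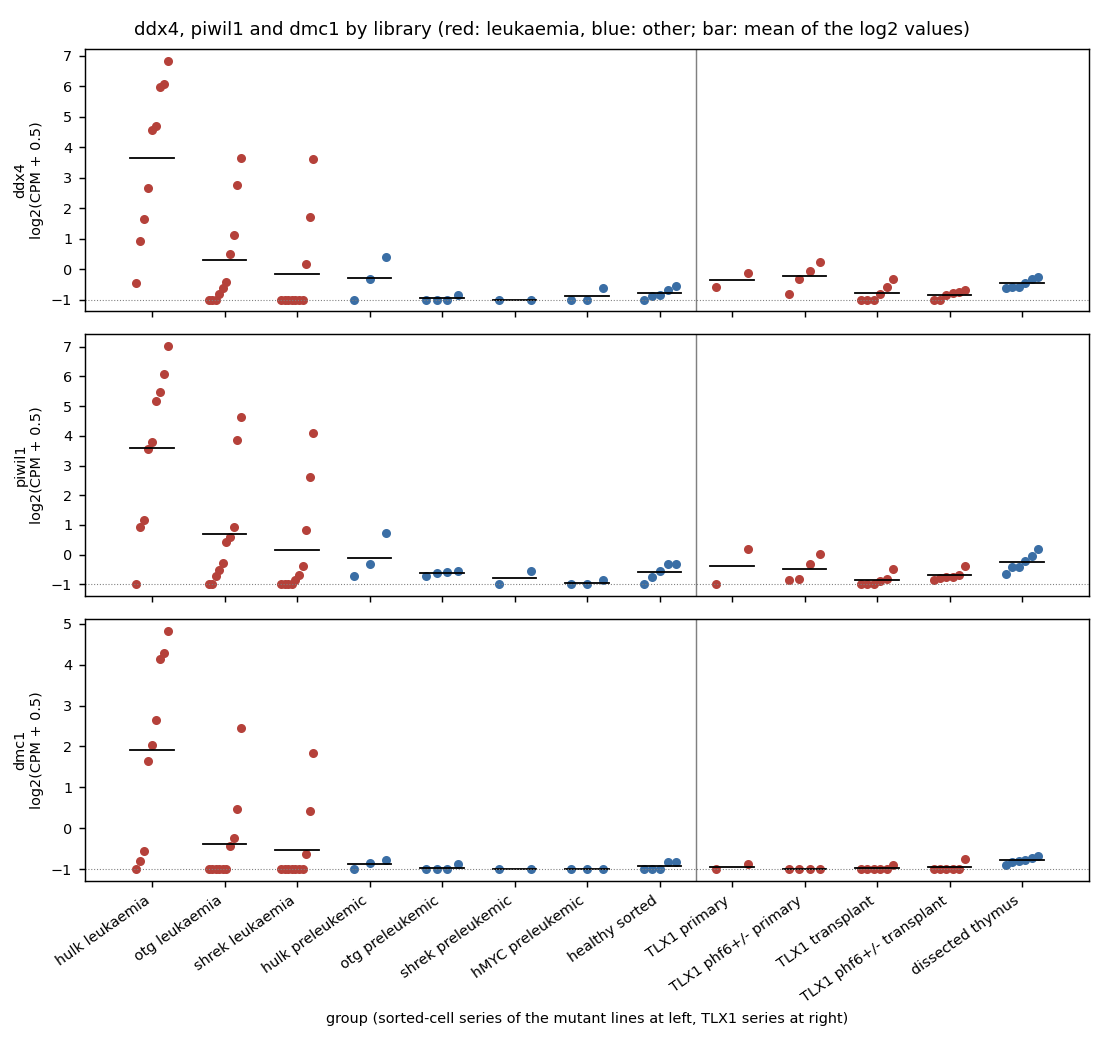
Level of ddx4, piwil1 and dmc1 (panels) in each sample, in CPM on a log2(CPM + 0.5) axis, for 13 groups. Points are samples, red for leukaemias and blue for the other cells, and bars are means of the log2 values. Hulk leukaemias reach 112.8, 129.6 and 27.9 CPM, while TLX1 leukaemias stay under 1 CPM, in ranges that overlap those of the dissected thymi.

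Which of these genes differ between leukaemia and healthy T cells was tested with edgeR's quasi-likelihood test, adjusted over all 21831 genes tested, of which 35 were germ-cell genes. In hulk leukaemias 28 of the 35 rose against healthy sorted cells and none fell, while 8.47% of all genes tested rose and 5.19% fell. Over all healthy samples 10 of the 35 had 3 reads or fewer and could hardly fall, so the lack of falls says little. The same limit applies to otg and shrek leukaemias against healthy cells. The median log2 fold change was 6.14 over the 35 genes (6.10 with dnd1 at its lower bound), against 0.09 over all genes. The count was 21 without the 3 samples with over 20% mitochondrial reads, and 18, 16 and 16 without healthy samples 1, 2 and 4. DESeq2 and limma voom called 30 and 28 of the 35, and 3712 and 3571 of all genes.

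Among the genes of piRNA and germ granules, 14 of 15 rose. Log2 fold changes (± SE) were 8.72 ± 2.16 for ddx4 (edgeR adjusted p = 0.00895), 7.64 ± 2.02 for piwil1 (edgeR adjusted p = 0.0124) and 7.57 ± 1.90 for piwil2, the second PIWI gene (edgeR adjusted p = 0.00968). In an exact two-sided permutation test over these 14 samples on the log2(CPM + 0.5) scale, p was 0.000999 for ddx4 and 0.00599 for piwil1, and 0.012 and 0.028 after adjustment over the 12 such tests made. The mitochondrial nuclease gene pld6, which processes piRNA precursors, had 1014 reads in hulk leukaemias, against 1 read in healthy cells (7.504 ± 9.13 CPM, SD, n = 9, against 0.0124 ± 0.0277 CPM, n = 5), a ratio of 699 with a 95% counting interval from 125 to 27650. It was higher in 9 of 9 hulk leukaemias than in any healthy sample (edgeR adjusted p = 0.00895). However, hulk leukaemia 9 and healthy sample 1 had 1 read each, so that their order rests on the scaling of the libraries.

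The Tudor genes tdrd1, tdrd5, tdrd6, tdrd7a, tdrd9 and tdrd12, whose proteins scaffold the granules, rose, as did asz1, henmt1, rnf17 and gtsf1. The median tdrd7a level was 31.4 CPM in hulk leukaemias (0 to 100.6 CPM), against 0.0620 CPM in healthy cells (0 to 0.312 CPM), and that of tdrd6 was 24.9 CPM (0.571 to 64.9 CPM), against 0.434 CPM (0.177 to 0.812 CPM). For tdrd6 only hulk leukaemias 1 to 4, 6 and 8 were above all healthy samples. The gene for the methyltransferase of piRNA ends, henmt1, reached at most 6.48 CPM in hulk leukaemias, against 0.0625 CPM in healthy cells. The exception was tdrkh, a mitochondrial Tudor partner of PIWI proteins, with 22.5 ± 8.68 CPM (SD, n = 9) in hulk leukaemias and 30.6 ± 5.45 CPM (SD, n = 5) in healthy cells (log2 fold change -0.35 ± 0.32, edgeR adjusted p = 0.485).

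Of the genes for germline RNA-binding proteins, dazl and dnd1 passed and nanos3 had too few reads to test (4 in hulk leukaemias, 1 in healthy cells). Dazl, a translational regulator of germ-cell mRNAs, was at 21.0, 13.3, 20.6, 34.1, 0.531, 9.14, 0.228, 5.54 and 0.854 CPM in hulk leukaemias 1 to 9, against 0 to 0.188 CPM in healthy cells, with no overlap (log2 fold change 7.60 ± 1.82, edgeR adjusted p = 0.00755). Hulk leukaemia 7 had 2 dazl reads and healthy sample 3 had 3, so that their order rests on the scaling of the libraries. The survival factor gene of primordial germ cells, dnd1, had 71 reads in hulk leukaemias and no read in healthy cells, at least 16.3-fold higher when 3 reads are taken as the limit over the healthy group (edgeR adjusted p = 0.0117). It was in 8 of 9 hulk leukaemias, at up to 1.10 CPM. No read of dnd1 was found in any otg or shrek leukaemia or in any preleukemic thymocytes. Dnd1 thus entered the test only through its reads in hulk leukaemias, where it could not have been called lower. Henmt1 and tdrd5 likewise passed the read filter only through hulk leukaemias, so that the direction of their calls was fixed in advance.

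Among the genes of the chromosome axis and synapsis, 4 of 6 rose. The axis gene hormad1 was at 53.4, 35.4, 68.3, 149, 0.413, 18.0, 0, 19.9 and 0.155 CPM in hulk leukaemias 1 to 9, against 0 to 0.427 CPM in healthy cells, and only leukaemias 1 to 4, 6 and 8 were above every healthy sample (log2 fold change 7.67 ± 2.00, edgeR adjusted p = 0.0117). The other genes that rose were sycp3, of the lateral elements, and syce1 and syce2, of the central element. Both remaining genes missed the threshold. The transverse filament gene sycp1 had a median of 62.1 CPM (0.114 to 101 CPM) in hulk leukaemias and of 4.71 CPM (1.5 to 6.06 CPM) in healthy cells (3.76 ± 1.36, edgeR adjusted p = 0.0568, and 0.0411 to 0.0483 without hulk leukaemia 5, 7 or 9). Its level in healthy cells was thus measurable, and hulk leukaemias 7 and 9 lay below all of them. The lateral element gene sycp2 had 5.94 ± 2.1 (edgeR adjusted p = 0.0525).

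Among the genes of meiotic recombination, 6 of 9 rose. The gene for the enzyme that makes meiotic breaks, spo11, was at 16.4, 9.66, 5.28, 15.04, 0.0590, 1.88, 0, 1.67 and 0 CPM in hulk leukaemias 1 to 9, against 0 to 0.124 CPM in healthy cells (log2 fold change 6.89 ± 1.80, edgeR adjusted p = 0.0116). Dmc1 had 8.27 ± 2.16 (edgeR adjusted p = 0.0118, and 0.00699 in the exact permutation test, 0.028 after adjustment over the 12 tests). The genes meiob, of a single-strand DNA-binding partner, msh4 and msh5, which stabilise crossovers, and tex11, a meiotic crossover factor in mice, rose as well. The 3 that did not pass were all readily measured in healthy cells. Mnd1 and psmc3ip, whose products form the complex that helps Dmc1, had 17.5 ± 4.83 and 9.18 ± 5.73 CPM (SD, n = 9) in hulk leukaemias, and 9.22 ± 2.05 and 8.85 ± 2.58 CPM (SD, n = 5) in healthy cells. The crossover endonuclease gene mlh3 had 9.08 ± 3.69 CPM (SD, n = 9) in hulk leukaemias, and 14.6 ± 5.32 CPM (SD, n = 5) in healthy cells (log2 fold change -0.62 ± 0.46, edgeR adjusted p = 0.381).

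Of the last 3 genes, hsf5, a transcription factor gene needed for spermatogenesis in zebrafish, had a median of 10.2 CPM in hulk leukaemias (0 to 38.7 CPM), against 0.124 CPM in healthy cells (0 to 0.366 CPM). Its log2 fold change was 7.04 ± 1.68 (edgeR adjusted p = 0.00733). Znf541, a regulator of meiotic progression in mice, had 1037 reads in hulk leukaemias and 1 in healthy cells, a ratio of 715 with a 95% counting interval from 128 to 28270 (edgeR adjusted p = 0.0106). Tex15, which acts in the male germ line of mice, had 5.28 ± 2.84 CPM (SD, n = 9) in hulk leukaemias and 7.34 ± 1.41 CPM (SD, n = 5) in healthy cells, and did not pass (edgeR adjusted p = 0.717).

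**Figure D3:**
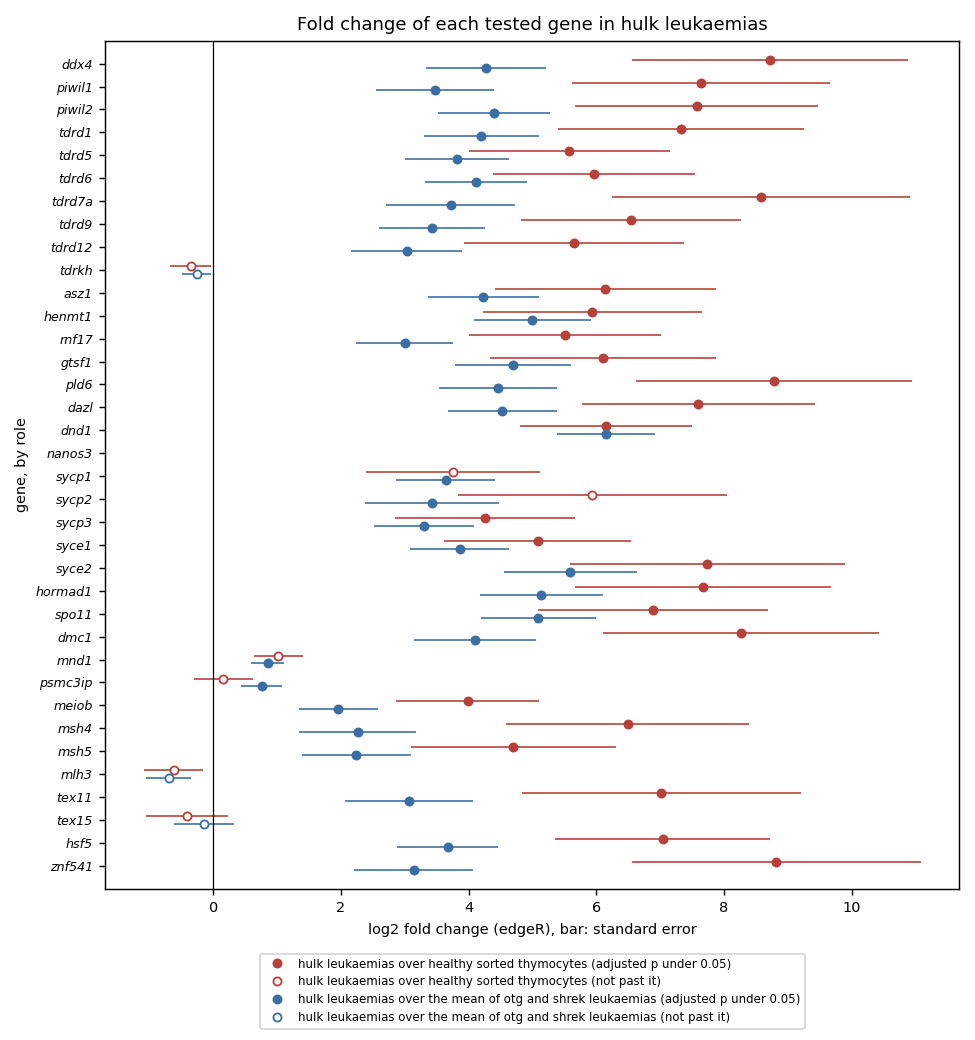
Log2 fold change with its standard error for each of 35 germ-cell and meiosis genes, in red for hulk leukaemias over healthy sorted cells and in blue for hulk leukaemias over the mean of otg and shrek leukaemias. Filled points passed an adjusted p of 0.05 in edgeR (28 red and 32 blue), and tdrkh, mlh3 and tex15 lie near 0 in both.

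Against preleukemic thymocytes of hulk, the same leukaemias gave none of the 35 genes past the threshold in edgeR, where 0.206% of all genes passed (0.0825% higher). At an unadjusted p under 0.05, 27 genes were higher in leukaemias. For this count and those below at an unadjusted p, the share of all genes is not reported here. DESeq2 and limma voom called 9 and 10 of the 35, and 585 and 786 of all genes. The median log2 fold change over the 35 genes was 6.00 (5.58 with genes without a preleukemic read at their bounds), and over all genes 0.14. Ddx4 had 6.53 ± 2.43 (edgeR adjusted p = 0.159), piwil1 6.10 ± 2.36 (edgeR adjusted p = 0.178) and dmc1 7.42 ± 2.65 (edgeR adjusted p = 0.147). Znf541 had 1037 reads in leukaemias and none in the 3 preleukemic samples, at least 108-fold higher with 3 reads as the limit over the preleukemic group (edgeR adjusted p = 0.121). The exact permutation p for ddx4 was 0.0273, and 0.0819 after adjustment over the 12 tests.

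The single-strand DNA-binding gene meiob departed from the other genes before leukaemia. It was at 4.29, 7.15 and 7.12 CPM in hulk, 2.40, 0.958, 1.37 and 1.70 CPM in otg, 1.98 and 0.849 CPM in shrek and 3.41, 0.993 and 2.35 CPM in hMYC preleukemic thymocytes, against 0.186, 0.0610, 0.812, 0 and 0.239 CPM in healthy cells. All 12 preleukemic samples were above all 5 healthy ones in scaled CPM, and the share of all genes so separated is not reported here. Shrek preleukemic sample 2 had 43 meiob reads among 47598816 and healthy sample 3 had 13 among 13950758, so that their order rests on the scaling of the libraries. The healthy samples also stand in a count table of their own. The log2 fold change of the mean of the 4 preleukemic groups over healthy cells was 3.23 ± 1.06, which did not pass (unadjusted p = 0.00379, edgeR adjusted p = 0.0709). The median log2 fold change over the 35 genes was -0.50, and over all genes -0.19. None of the 35 genes passed in that comparison with edgeR, where 3.53% of all genes did (0.344% higher and 3.18% lower). Meiob was singled out after its values were seen, and 1 of the 35 genes had an unadjusted p under 0.05. DESeq2 and limma voom called 2 and 1 of the 35, and 1332 and 716 of all genes.

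Otg leukaemias gave 2 of 35 genes higher than in healthy cells and none lower, where 12.8% of all genes were higher and 15.1% lower, and 12 genes were higher at an unadjusted p under 0.05. They were piwil1, with 4.22 ± 8.24 CPM (SD, n = 10) in otg leukaemias and 0.178 ± 0.135 CPM (SD, n = 5) in healthy cells (log2 fold change 4.65 ± 1.77, edgeR adjusted p = 0.0448), and znf541 (edgeR adjusted p = 0.032). Znf541 had 101 reads in otg leukaemias and 1 in healthy cells, a ratio of 76.5 with a 95% counting interval from 13.4 to 3051. Both calls rested on single samples: without otg leukaemia 6 the adjusted p was 0.101 for piwil1 and 0.0667 for znf541, and the count of calls was 0. With DESeq2 size factors 1 call was higher and 1 lower. The count was also 0 without healthy sample 1, 4 or 5, and 1 without otg leukaemia 7 or healthy sample 2 or 3. Without otg leukaemia 10, 2 or 4, each with 5 to 7 genes at 1 CPM, it was 6, 5 or 4. Ddx4 had 4.77 ± 1.87 (edgeR adjusted p = 0.0514, and 0.0426 to 0.0468 without otg leukaemia 10, 2 or 4).

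Shrek leukaemias gave 2 of 35 genes higher than in healthy cells and none lower, where 8.53% of all genes were higher and 30.2% were higher or lower, and 9 were higher at an unadjusted p under 0.05. One was znf541 (150 reads in shrek leukaemias and 1 in healthy cells, a ratio of 75.5 with a 95% counting interval from 13.4 to 3002, edgeR adjusted p = 0.0365), whose adjusted p was 0.114 without shrek leukaemia 1 and between 0.0519 and 0.0816 when any 1 healthy sample was left out. The count of calls was then 1. The other was msh4 (log2 fold change 5.78 ± 1.85, edgeR adjusted p = 0.0155). Its levels in shrek leukaemias 1 to 9 and 11 were 2.28, 9.15, 0.112, 0.0504, 0.249, 0, 16.6, 0.0579, 0 and 1.14 CPM, against 0 to 0.125 CPM in healthy cells. The highest values were in shrek leukaemias 7 and 2, which had no ddx4 read and only 7 and 6 genes at 1 CPM. In both shrek preleukemic samples msh4 was measurable too, at 1.17 and 3.08 CPM.

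Against preleukemic thymocytes of their own line, otg leukaemias gave no call among the 35 genes in edgeR (13 at an unadjusted p under 0.05, all higher in leukaemias), where 12.1% of all genes passed (6.55% higher and 5.52% lower). DESeq2 and limma voom called 5 and 0 of the 35 there, and 3451 and 3888 of all genes. Shrek leukaemias gave 1 call, lower, where 9.25% of all genes were lower and 6.12% higher. It was psmc3ip, the partner of Mnd1, with 7.72 ± 5.30 CPM (SD, n = 10) in shrek leukaemias and 24.2 ± 7.56 CPM (SD, n = 2) in shrek preleukemic thymocytes (log2 fold change -1.79 ± 0.56, edgeR adjusted p = 0.0239). All 10 leukaemias were below both preleukemic samples, but without either of these the adjusted p was 0.0936 or 0.304. At an unadjusted p under 0.05, 9 of the 35 genes were higher in shrek leukaemias among 11 in all, and the median log2 fold change over the 35 was 2.81. DESeq2 called 5 higher and 1 lower, and limma voom 3 lower. Of all genes DESeq2 called 2896 higher and 1342 lower, and limma voom 2418 higher and 3197 lower. In the same comparison 7 of 24 S-phase genes and 3 of 19 mitosis genes were lower and none higher, and the part of cell division in the psmc3ip value was not tested.

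Whether hulk differed from the other lines was tested as the hulk leukaemias against the mean of the otg and shrek leukaemias, which takes in no healthy sample. This contrast was chosen with earlier results of these data known. Of the 35 genes, 32 were higher in hulk leukaemias and none lower, where 29.9% of all genes were higher and 43.4% were higher or lower. Gonadal markers were higher and some T-cell markers lower in the same contrast, with values given beside the marker lists. The median log2 fold change was 3.67 over the 35 genes and 0.18 over all genes. The largest was at least 54.0-fold for dnd1 (71 reads in hulk leukaemias and none in the 20 others, with 3 reads as the limit over that group, edgeR adjusted p = 2.87e-05). As dnd1, henmt1 and tdrd5 entered the test only through hulk leukaemias, their direction was fixed in advance. Log2 fold changes were 5.59 ± 1.04 for syce2 (edgeR adjusted p = 6.14e-05), 5.14 ± 0.96 for hormad1 (edgeR adjusted p = 5.25e-05) and 5.09 ± 0.90 for spo11 (edgeR adjusted p = 2.42e-05). They were 4.27 ± 0.94 for ddx4 (edgeR adjusted p = 0.000365), 4.10 ± 0.95 for dmc1 (edgeR adjusted p = 0.000636) and 3.47 ± 0.92 for piwil1 (edgeR adjusted p = 0.00229).

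For no gene were all 9 hulk leukaemias above all otg and shrek leukaemias. Hulk leukaemias 5, 7 and 9 had ddx4 at 1.42, 0.228 and 2.64 CPM, against 12.04, 11.8 and 6.35 CPM in otg 6, shrek 1 and otg 7. Mnd1 and psmc3ip were also higher in hulk leukaemias, by a smaller amount (log2 fold changes 0.85 ± 0.26 and 0.76 ± 0.32, edgeR adjusted p = 0.00648 and 0.0485). Tdrkh (-0.26 ± 0.23, edgeR adjusted p = 0.373), mlh3 (-0.70 ± 0.35, edgeR adjusted p = 0.0988, but 0.0326 without otg leukaemia 8) and tex15 (-0.14 ± 0.47, edgeR adjusted p = 0.837) did not pass. Without any single leukaemia the count stayed between 29 and 33.

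Within each line, most of the genes followed ddx4 from sample to sample. On log2(CPM + 0.5) values, 28 of 34 genes in hulk, 25 of 33 in otg and 22 of 33 in shrek leukaemias had a Spearman rho with ddx4 of at least 0.7, which 12.2%, 4.24% and 4.89% of all genes had. The median rho was 0.93 in hulk, 0.84 in otg and 0.79 in shrek leukaemias. Relations between samples of 1 line share the depth and the make-up of each sample. Without the 2 samples farthest from the median of ddx4, 28, 16 and 12 genes had a Pearson r of at least 0.7. The median r was then 0.89, 0.78 and 0.55, against 0.93, 0.91 and 0.93 over all samples, so that in otg (without 6 and 7) and shrek (without 1 and 11) the pattern rests in large part on 2 samples each. In shrek only leukaemia 3 of the samples then left had any ddx4 read (11 reads), so that its 12 genes and median of 0.55 show no relation.

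For piwil1 Pearson r was 0.96 in hulk, 0.97 in otg and 0.99 in shrek leukaemias, with rho 0.92, 0.95 and 0.84, and r was 0.92 in hulk and 0.84 in otg without the 2 farthest samples. Of the 8 shrek leukaemias then remaining, 7 had no ddx4 read, so that no relation can be read among them. The two-sided permutation p-values, which are not adjusted over the 102 relations computed, were 7.99e-05, 8e-05 and 0.00124 for r and 0.00131, 0.00012 and 0.00124 for rho. For dmc1 r was 0.96, 0.93 and 0.96 in hulk, otg and shrek leukaemias (permutation p = 0.000204, 0.00031 and 0.0108) and rho was 0.95, 0.88 and 0.71 (permutation p = 0.000353, 0.0008 and 0.0178). In shrek leukaemias r for dmc1 was -0.14 without shrek leukaemias 1 and 11, a value that cannot be read for the same reason. The relation over all shrek leukaemias rests on those samples. By the mean rho over the 3 lines, the gene closest to ddx4 was tdrd7a (rho 0.95, 0.97 and 1.00), but in shrek both had no read in the same 7 of 10 leukaemias, so that the last value rests on 3 samples.

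Tdrkh, mlh3, mnd1, psmc3ip and tex15 did not follow ddx4. The Spearman coefficient in hulk, otg and shrek leukaemias was 0.33, -0.09 and -0.25 for tdrkh, -0.35, 0.36 and 0.59 for mlh3, 0.35, -0.58 and -0.13 for mnd1, 0.55, -0.07 and -0.08 for psmc3ip, and -0.28, 0.48 and 0.02 for tex15. These are the genes that were at 1 CPM or more in nearly every sample. Msh4 followed ddx4 in hulk (0.93) and otg (0.76) but not in shrek leukaemias (0.31).

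**Figure D4:**
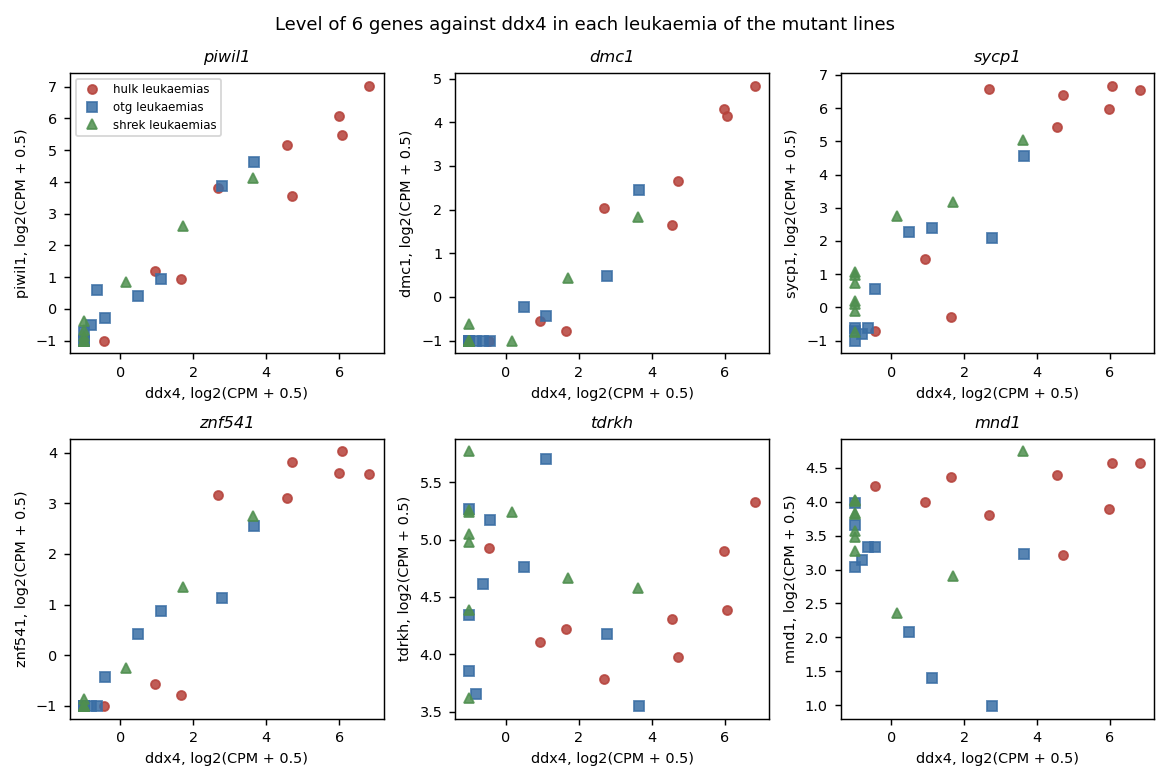
Levels of piwil1, dmc1, sycp1, znf541, tdrkh and mnd1 (panels) against ddx4 in the 29 leukaemias of hulk, otg and shrek, both axes as log2(CPM + 0.5), each point a sample. Piwil1, dmc1, sycp1 and znf541 climb with ddx4 (rho 0.92, 0.95, 0.77 and 0.85 in hulk), and tdrkh and mnd1 do not (0.33 and 0.35).

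The genes kept uneven proportions to each other. Over the 13 leukaemias with ddx4 at 1 CPM or more, the ratio to ddx4 varied least for rnf17, a Tudor and RING finger gene (0.115 to 0.435, a 3.77-fold range), then for tdrd9, a germline helicase gene (4.30-fold), and piwil1 (0.437 to 2.27, 5.18-fold). For sycp1 it ran between 0.118 in hulk leukaemia 9 and 15.9 in hulk leukaemia 8, a 135-fold range. Hulk leukaemia 8 also had the highest ratio for tdrd6 (5.71), hormad1 (3.36) and syce2 (3.58). Hulk leukaemia 9 had the lowest for many meiotic genes, with spo11, syce2, syce1 and msh5 at no read beside ddx4 at 2.64 CPM. Ddx4 had only 34 reads in that sample, sycp1 4 and dmc1 1, so that its low ratios rest on few reads. In hulk leukaemia 9 the ratio of piwil1 to ddx4 was 0.529, against a median of 1.25 over the 13, and that of dmc1 was 0.0294, against a median of 0.248.

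Outside the listed genes, the 10 named genes most like ddx4, by the mean rho over the 3 lines among 15944 genes, had values of 0.94 to 0.97. In shrek leukaemias all 10 had a rho of 1.00 and a median of 0 CPM. Most shrek leukaemias had no ddx4 read, so that this rho rests on few samples and lifts the mean. The 10 genes included ADAD1, si:ch211-277c7.7, RBM46, akap1a, tektl1, cimip2b, SPATA4, ccdc83 and lrp2bp. ADAD1, a gene for a testis RNA-binding protein in mice, had a median of 5.97 CPM in hulk leukaemias (0 to 30.4 CPM) and reached 5.35 CPM in otg leukaemias.

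Other genes of the same pathways moved in hulk leukaemias against healthy cells, where 8.47% of all genes rose and 5.19% fell. These lists, too, were chosen with earlier results of these data known. Of 25 further meiotic genes, 18 rose and none fell, with a median log2 fold change of 5.68, among them rad21l1, a meiotic cohesin gene (5.68 ± 1.35, edgeR adjusted p = 0.00703), and MCMDC2, at 0.853 ± 0.914 CPM (SD, n = 9) in hulk leukaemias and with no read in healthy cells (edgeR adjusted p = 0.00668). Of 11 further piRNA and germ-granule genes, 5 rose and none fell (median 2.80), among them ddx43 (7.43 ± 1.82, edgeR adjusted p = 0.00861). Of 27 genes of somatic homologous recombination and mismatch repair, 2 rose (SFR1 and XRCC2) and 1 fell (RAD51C), with a median of 0.10. None of 24 S-phase or 19 mitosis genes passed, with median log2 fold changes of -0.20 and 0.62, and 0 and 4 of them had an unadjusted p under 0.05.

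Of 18 regulators of germline gene silencing and DNA methylation, none rose and 2 fell in hulk leukaemias against healthy cells, where 5.19% of all genes fell. TET1 and tet3, which encode enzymes that oxidise methylated cytosine, fell by 2.95 ± 0.63 and 2.68 ± 0.64 on the log2 scale (edgeR adjusted p = 0.003 and 0.00716). TET1 was at 3.15 ± 2.75 CPM (SD, n = 9) in hulk leukaemias and 25.4 ± 12.2 CPM (SD, n = 5) in healthy cells. In otg leukaemias TET1 was also lower than in healthy cells (-2.09 ± 0.60, edgeR adjusted p = 0.00843). Against the mean of otg and shrek leukaemias, tet3 (-1.63 ± 0.51, edgeR adjusted p = 0.0089) and mgaa (-1.20 ± 0.40, edgeR adjusted p = 0.0131) were among those lower in hulk leukaemias. YAF2 (0.64 ± 0.20, edgeR adjusted p = 0.0102) and PCGF6 (0.89 ± 0.32, edgeR adjusted p = 0.0239) were higher. Of all genes 29.9% were higher and 13.5% lower there. The part of these regulators in the germ-cell results was not tested.

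Marker genes of gonadal cells were measured beside these results. Of 5 spermatid and sperm genes, 4 rose in hulk leukaemias against healthy cells, where 8.47% of all genes rose. Their summed level was 82.1, 53.3, 42.0, 131, 0.472, 20.3, 0.114, 59.2 and 0.544 CPM in hulk leukaemias 1 to 9, against 0.191 to 1.81 CPM in healthy cells, and the high samples were the same 6 that held the germ-cell genes. In otg leukaemias the sum reached 17.1 CPM, in otg 6, and in shrek leukaemias 9.90 CPM, in shrek 1. TSSK6, a kinase gene of late spermatids, had 318 reads in hulk leukaemias and none in healthy cells or dissected thymus. With a mean of 0.0396 CPM in otg and shrek leukaemias as well, it could hardly have been called lower in hulk leukaemias. Dissected thymi, in which ddx4 was under 1 CPM, had sums of 10.6 to 14.5 CPM, mostly from TEKT1, SPATA4 and cimap1b.

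Of 8 tested genes of gonadal somatic cells, 3 rose in hulk leukaemias against healthy cells, where 8.47% of all genes rose. DMRT1, a gene of Sertoli and germ cells, was at 10.91 ± 11.03 CPM (SD, n = 9) in hulk leukaemias and 0.0499 ± 0.0815 CPM (SD, n = 5) in healthy cells (log2 fold change 7.78 ± 2.13, edgeR adjusted p = 0.0151). The Leydig cell hormone gene insl3 had 176 reads in hulk leukaemias and 1 in healthy cells (edgeR adjusted p = 0.0299). The steroid enzyme gene hsd3b1 was at 0.21 ± 0.289 CPM (SD, n = 9) in hulk leukaemias and had no read in healthy cells (edgeR adjusted p = 0.0214). The median log2 fold change over the 8 tested genes was 2.25. Of those that did not pass, gsdf had a higher mean in hulk leukaemias (0.759 CPM) than in healthy cells (0.341 CPM), and STAR and cyp11c1 had lower ones. STAR was at 1.55 ± 1.00 CPM (SD, n = 9) against 3.30 ± 2.82 CPM (SD, n = 5). Cyp11c1 was at 1.01 ± 0.362 CPM (SD, n = 9) against 1.19 ± 1.07 CPM (SD, n = 5). The summed level of the 11 genes was 2.33 to 37.2 CPM in hulk leukaemias, 1.33 to 13.4 CPM in otg leukaemias, 0.660 to 8.77 CPM in shrek leukaemias and 1.5 to 14.4 CPM in healthy cells. The gonadotropin receptor genes FSHR and lhcgr had 3 and 9 reads in all hulk leukaemias, and 4 reads each in healthy cells, whose inha count was 0. Of 9 oocyte genes 3 could be tested, and zp3b and buc rose. The summed oocyte level was 143 CPM in hulk leukaemia 3, nearly all of it zp3b (141 CPM), 1.14 to 8.83 CPM in the other hulk leukaemias and 0.309 to 5.25 CPM in healthy cells. In hulk leukaemias against the mean of otg and shrek leukaemias, all 5 spermatid and sperm genes, 5 of 8 gonad soma genes and 1 of 3 oocyte genes were higher and none lower. Of all genes 29.9% were higher and 13.5% lower there, so that the oocyte count was near the share of all genes. Log2 fold changes were 5.81 ± 0.93 for TSSK6, 4.43 ± 0.85 for TEKT1, 4.64 ± 0.84 for hsd3b1, 3.43 ± 0.71 for gsdf, 3.76 ± 0.81 for CYP17A1, 4.22 ± 0.97 for DMRT1 and 4.31 ± 0.70 for zp3b (edgeR adjusted p between 7.8e-06 for zp3b and 0.000624 for DMRT1). The part of gonadal cells in the germ-cell results was not tested.

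Of the 11 T-cell genes, 2 fell and none rose in hulk leukaemias against healthy cells, where 5.19% of all genes fell and 8.47% rose. The median log2 fold change over the 11 genes was 0.15, so that the list as a whole was not lower. The T-cell transcription factor gene TCF7 was at 73.1 ± 46.3 CPM (SD, n = 9) in hulk leukaemias and 307.5 ± 141 CPM (SD, n = 5) in healthy cells (log2 fold change -1.99 ± 0.49, edgeR adjusted p = 0.00869), and bcl11ba had -1.59 ± 0.49 (edgeR adjusted p = 0.0286). Against otg and shrek leukaemias 3 were lower in hulk leukaemias, TCF7 (-1.77 ± 0.40, edgeR adjusted p = 0.000445), the recombinase gene RAG1 (-1.77 ± 0.62, edgeR adjusted p = 0.0184) and bcl11ba (-1.09 ± 0.39, edgeR adjusted p = 0.0206). Of all genes 13.5% were lower there. The part of these lower T-cell genes in the germ-cell results was not tested.

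**Figure D5:**
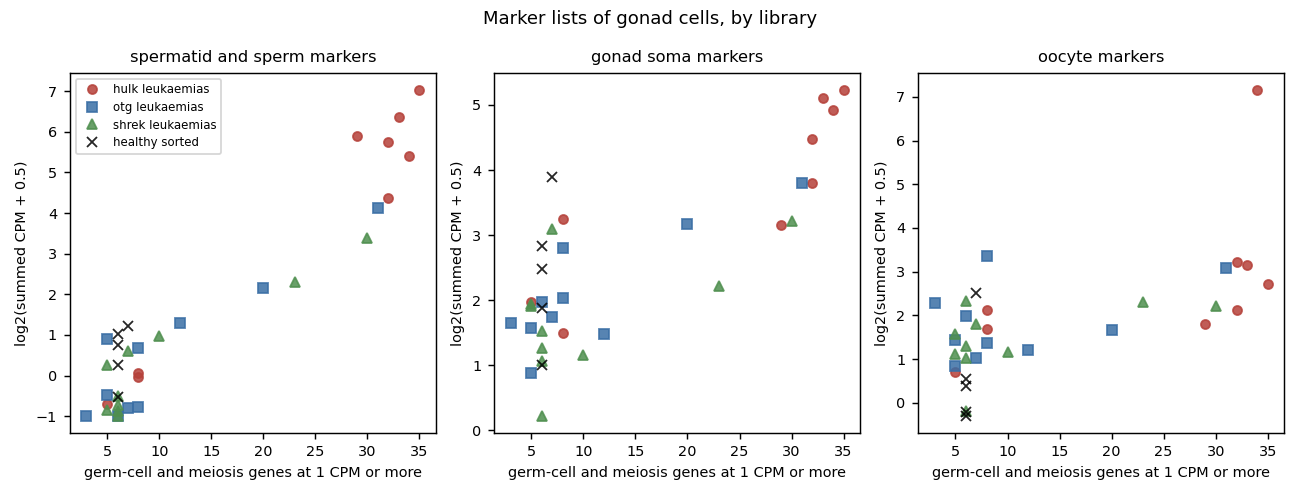
Summed level of spermatid and sperm, gonad soma and oocyte marker genes (panels, as log2 of the summed CPM + 0.5) against the number of the 36 germ-cell and meiosis genes at 1 CPM or more, for leukaemias of hulk, otg and shrek and for healthy sorted cells, each point a sample. Samples with many of the 36 genes have the highest spermatid and sperm sums (up to 131 CPM in hulk leukaemia 4, with 35 genes), and the oocyte sums stand apart in hulk leukaemia 3 alone (143 CPM).

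In the TLX1 series, 18 of the genes had enough reads for a test of the 6 primary leukaemias against 6 dissected thymi. Of these 2 were higher, where 20.2% of all genes were higher, and 1 was lower, where 35.8% were lower, and 56% of all genes were called in either direction. Scaled by library size alone, 1 was higher and 6 were lower, where 606 of all 22224 genes tested were higher and 16318 lower. The Tudor gene tdrd7a was at 1.77 ± 1.74 CPM (SD, n = 6) in primary leukaemias and 0.0191 ± 0.0233 CPM (SD, n = 6) in thymi (log2 fold change 6.27 ± 1.08, edgeR adjusted p = 0.000348). Mnd1 was at 14.1 ± 6.62 CPM in primary leukaemias and 28.7 ± 4.72 CPM in thymi (-0.95 ± 0.31, edgeR adjusted p = 0.0196, and 0.0991 without the second TLX1 primary). Tdrkh was at 24.4 ± 6.00 CPM in primary leukaemias and 17.2 ± 2.47 CPM in thymi (0.51 ± 0.19, edgeR adjusted p = 0.0329), but when scaled by library size alone it was lower in leukaemias (-0.74, adjusted p = 0.0302), as the median of all genes then moved to -1.45. Leaving out any of 5 samples also took its adjusted p to between 0.0504 and 0.108. Ddx4 (0.62 ± 0.49, edgeR adjusted p = 0.3) and piwil1 (-0.21 ± 0.73, edgeR adjusted p = 0.823) did not pass. Without TLX1 primary 1, piwil1 was lower in leukaemias (-3.53, edgeR adjusted p = 0.0386). Dmc1 had 1 read in primary leukaemias and 23 in thymi, too few to test.

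In some transplants a few genes were measurable where they were so in the leukaemia that was transplanted, and at 1 CPM or less otherwise. Other values went the other way. In phf6+/- fish tdrd7a was at 1.80 CPM in primary 1 but at 0.0290, 0.0807 and 0.216 CPM in its transplants. Meiob was at 0.136 CPM in that primary and reached 1.23 CPM in a transplant of it. Tex11 was at 0 CPM in TLX1 primary 1 and at 1.26 CPM in TLX1 transplant 1. Tdrd7a was at 6.36, 10.3, 8.12 and 5.82 CPM in the 4 transplants of TLX1 primary 2 and at 2.54 CPM in that primary, but at 0 and 0.0434 CPM in both transplants of TLX1 primary 1 and at 0.0687 CPM in primary 1. Of the 4 transplants of primary 2, 2 were passed on from another of them, and transplants of 1 leukaemia share its cells, so no test was made. In phf6+/- fish msh4 was at 8.06, 8.15 and 6.19 CPM in transplants of primary 1 and at 3.81 CPM in that primary, but at 0, 0.0387 and 0.0385 CPM in transplants of primary 2 and at 0 CPM in primary 2. Tex15 was at 7.30, 8.36 and 7.39 CPM in transplants of phf6+/- primary 1 (3.13 CPM in the primary), and at 0.667, 0.658 and 1.00 CPM in transplants of primary 2 (0.410 CPM in the primary). Sycp1 was at 1.97, 2.22 and 2.25 CPM in transplants of primary 1 and at 0, 0.232 and 0.0769 CPM in those of primary 2. Msh4 and tex15 were chosen here after their values were seen. Ddx4 was at most 0.291 CPM in any transplant.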

How the data were processed

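The deposited tables hold raw counts of reads per gene, and they were aligned with STAR to GRCz10, per the submitters' processing notes. The counter and the annotation are not given in the sources used here. Libraries were stranded mRNA libraries, per the labels' protocols. Columns were matched to samples by the labels, and 9 columns that match no label were not used.

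The members and all gene lists were chosen with earlier results of these data known. Members were matched by gene ID or symbol, with symbols for 27000 of 35117 genes. CPM use TMM factors over all 70 libraries (0.38 to 1.69). edgeR 4.0.16 (R 4.3.3) fitted 46 libraries of the first laboratory in 8 groups (21831 genes) and 12 of the other (22224 genes), after a filter for a count of 10 (15 in total), and made 9 comparisons by quasi-likelihood tests with Benjamini-Hochberg adjustment at 0.05. A floor of 3 reads stands for a group with none, and 95% intervals cover counting error only. Correlations and exact tests used Python 3.11.15, scipy 1.17.1 and log2(CPM + 0.5). The fits were tested on simulated data.

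Besides ddx4, dmc1 and piwil1, values are given for up to 8 members with the smallest adjusted p that pass and up to 3 of high mean that do not, and for up to 4 genes of each other list. Others are named by group. Of 226 names in 10 lists, 50 matched no gene. Alternatives were DESeq2 1.42.0 size factors and Wald test, library size alone, no filter, limma 3.58.1 voom, the compared groups only, a replicate block, and leaving out each library or those with over 20% mitochondrial reads. For correlations, pseudocounts of 0.1 and 2 were tried. The exact permutation test was added after seeing the data. Paralogues and overlapping genes were not resolved. No sequences were used here, and 1 gene among those most like ddx4 is not reported here.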

Additional observations from a re-analysis of the deposited data

Results flagged for a closer look

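For 32 of the 35 genes the change of hulk leukaemias from healthy cells differed from the mean change of otg and shrek leukaemias. This was tested by edgeR in the direct contrast between the lines, where 29.9% of all genes were higher and 13.5% lower. Values are given for 11 of the 32: ddx4, dmc1, piwil1 and those with the smallest adjusted p. The differences on the log2 scale were 4.27 for ddx4, 4.10 for dmc1, 3.47 for piwil1, 5.09 for spo11, 6.15 for dnd1, 5.00 for henmt1, 5.14 for hormad1, 4.53 for dazl, 5.59 for syce2, 4.70 for gtsf1 and 4.11 for tdrd6. The dnd1 value is set against groups with no read and depends on the prior count of the fit. Dnd1 and henmt1 entered the test only through hulk leukaemias, so that their direction was fixed in advance.

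Single samples stood apart from their group in 8 of 26 sets of 1 gene and 1 group examined for ddx4, dmc1 and piwil1. The usual chance rate of about 1 in 20 does not hold here, since many of these sets are at or near 0 reads, where a single read stands apart. In otg leukaemia 6 dmc1 was at 4.94 CPM and in shrek leukaemia 1 at 3.07 CPM, and these samples also held most of the other germ-cell genes (31 and 30 of 36 at 1 CPM or more). The other 6 were at low levels: ddx4 at 0.0507 CPM (1 read) in otg preleukemic sample 3, dmc1 at 0.0416 CPM in otg preleukemic sample 2, at 0.0364 CPM in TLX1 transplant 3 and at 0.0924 CPM in phf6+/- TLX1 transplant 3, and piwil1 at 0.218 CPM in TLX1 transplant 3 and at 0.269 CPM in phf6+/- TLX1 transplant 6.

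In the transplants, which enter no test, tdrkh had a median of 22.8 CPM in TLX1 and 34.1 CPM in phf6+/- TLX1 transplants, and mlh3 had a median of 16.9 CPM in phf6+/- TLX1 transplants. In each case all 6 transplants were above all 6 dissected thymi in scaled CPM, an order that rests on the scaling of the libraries. For tdrkh, TLX1 transplants had 344 to 763 reads among 31976625 to 41393446 gene reads. The thymi had 609 to 947 tdrkh reads among 26285736 to 32977057. Several transplants share a leukaemia of origin, and the share of all genes so separated is not reported here.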

How the results depend on the processing

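The direction of ddx4, dmc1 and piwil1 in hulk leukaemias against healthy cells, and their calls, held under all 23 alternatives. The count of 28 germ-cell genes there ran between 16 and 30 when a library was left out, and that of all genes (2983) between 1384 and 3199, with 1948 without libraries of high mitochondrial share. The count of 32 for hulk against otg and shrek leukaemias held within 1.5 times throughout, while all genes there fell to 3924 with the compared groups only. In that contrast tex15, which did not pass, changed sign: 0.00 with DESeq2 size factors and with DESeq2's Wald test, 0.12 with limma voom, 0.49 with the replicate block, 0.06 without libraries of high mitochondrial share, and between -0.21 and 0.11 when a library was left out.

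Against healthy cells, otg leukaemias had 2 germ-cell genes past the threshold, and 1 with library size alone (lower), 1 without the filter, 6 with DESeq2, 0 with limma voom, 0 with the compared groups only, 0 without libraries of high mitochondrial share and 0 to 6 when a library was left out. All genes there (6105) were 5644 with library size alone, 6123 without the filter, 6576 with DESeq2, 6119 with limma voom and 1769 with the compared groups only. Shrek leukaemias had 2, and 0 with limma voom, 0 with the compared groups only, 1 without libraries of high mitochondrial share and 1 to 2 when a library was left out.

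Against hulk preleukemic cells, hulk leukaemias had 9 germ-cell genes with DESeq2 and 10 with limma voom, against 0 in edgeR. All genes past the threshold there (45) were 18 with library size alone, 25 without the filter, 585 with DESeq2, 786 with limma voom, 1 with the compared groups only, 71 without libraries of high mitochondrial share and 3 to 105 when a library was left out (3 without hulk preleukemic sample 3, 105 without sample 1). Otg leukaemias against otg preleukemic cells had 1 germ-cell gene with library size alone, 5 with DESeq2 and 0 to 2 when a library was left out (2 without otg leukaemia 10). All genes there were 2584 with library size alone, 3451 with DESeq2, 169 with the compared groups only and 932 to 3390 when a library was left out. Shrek leukaemias against shrek preleukemic cells had 0 with library size alone, 6 with DESeq2 (5 higher and 1 lower), 3 with limma voom (all lower), 2 with the compared groups only (1 higher and 1 lower) and 0 to 1 when a library was left out. All genes there were 1901 with library size alone, 5615 with limma voom and 772 to 3397 when a library was left out. Preleukemic groups against healthy cells had 2 with DESeq2, 1 with limma voom, 1 with the compared groups only and 0 to 1 when a library was left out (1 without healthy sample 3). All genes there (770) were 1217 with DESeq2 size factors, 1332 with its Wald test, 3617 with the compared groups only and 124 to 1365 when a library was left out (124 without shrek preleukemic sample 1, 1365 without hulk preleukemic sample 1).

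The TLX1 fit held only the compared groups, so that alternative was not run for it. In TLX1 primary leukaemias against thymus 7 germ-cell genes passed with library size alone (1 higher and 6 lower) and 5 without the filter (3 higher and 2 lower). Of all genes 606 were higher and 16318 lower with library size alone, and 4079 higher and 8881 lower without the filter. Under library size alone 4 genes turned to lower: ddx4 (-0.62), tdrkh (-0.74), mlh3 (-0.67) and sycp1 (-0.27). Piwil1 was at 0.05 without thymus 2, 0.26 without TLX1 primary 2 and -3.53 without TLX1 primary 1. The cause of these changes was not tested, except that fewer samples or groups enter some fits.

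Replicate numbers did not pair the samples. Same-numbered samples of different groups had a median correlation of deviations of 0.00685 over 105 pairs, 13 of them over 0.1, and other pairs one of -0.000838. With the replicate block, all genes past the threshold were 1916 for hulk leukaemias against healthy cells, 13 for hulk and 1587 for otg leukaemias against their preleukemic cells. Germ-cell genes with the block were 4 for otg and 0 for shrek leukaemias against healthy cells, and 1 for otg and 0 for shrek leukaemias against preleukemic cells.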
